A study of Homo sapiens with 4 samples.

Results

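The genes described here encode the machinery of DNA replication and the S-phase program around it, in sorted fractions of Huh7, an established human hepatocellular carcinoma line. They are a list of 46 named genes, and each of the 46 had a probe carrying exactly 1 gene symbol, out of 18377 genes measured that way. Cells were separated by flow cytometry for CD133 (a surface protein encoded by PROM1) into CD133-positive and CD133-negative fractions, and for aldehyde dehydrogenase (ALDH) into ALDH-positive and ALDH-negative fractions. The labels give no treatment, and each fraction was measured on 1 Affymetrix Human Gene 1.0 ST array, 4 arrays in all. The series frames the positive fractions as cancer stem cells and the negative fractions as other tumour cells. With 1 array per fraction no difference within a sort has a replicate check, and no p-value is given for one.

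Values are log2 expression levels after RMA (robust multi-array averaging), which brings the arrays to nearly the same distribution. A difference is always the log2 level of the positive fraction less the level of its negative counterpart, so 1 unit is 2-fold. Levels of different genes come from different probes and are not set against each other. Genes under 4.98, which is the median over every probe and array, count as dim (under the floor), and 44 of the 46 genes lay above it on all 4 arrays. The exceptions were GINS3 and CCNE2. All but UHRF1 had a single probe.

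Replication is prepared in G1, when the origin recognition complex, CDC6 and CDT1 load the MCM helicase onto DNA. At the start of S phase CDC45 and the GINS complex join the helicase and switch it on. Primase, the replicative polymerases, the PCNA clamp and its loader then copy the strands, while ribonucleotide reductase, thymidylate synthase and thymidine kinase supply the deoxynucleotides. Many of these genes are transcribed by E2F factors once cyclins and their kinases have inactivated the retinoblastoma protein. Their summed level in a cell population is therefore widely read as a measure of how much of it is cycling. In bulk RNA fewer cells in S phase and less RNA per cell cannot be told apart.

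The labels were checked first. PROM1 was higher by 3.68 in CD133-positive cells, against a level of 5.32 in CD133-negative cells, and was at 7.11 in ALDH-positive against 8.39 in ALDH-negative cells. ALDH1A1, an enzyme detected by ALDH assays, was at 11.14 in ALDH-positive against 11.10 in ALDH-negative cells, so this transcript does not check the ALDH labels. All 10 hepatocyte markers measured were above the floor in both sorts. AFP, the fetal liver protein, lay between 11.56 and 11.86 on the 4 arrays, but other hepatocyte markers differed by CD133: 3 of the 10 were at least 1.5-fold lower in the positive fraction, AHSG (-1.58), APOA1 (-0.78) and APOB (-0.69), and TTR was higher (0.995). None of the 10 reached 1.5-fold in the ALDH sort, but TTR, at -0.5849 (1.49994-fold lower), fell only just short of it. The leukocyte marker PTPRC stayed between 2.45 and 2.64. Among leukocyte markers above the floor, LYZ (lysozyme) differed by -0.69 between the CD133 fractions and 1.33 in the ALDH sort, CD14 by -0.29 and 0.42, and CD68 by 0.07 and -0.77. The endothelial markers PECAM1 (-0.93) and CDH5 (-0.67) were lower in ALDH-positive cells. In that sort they cleared the floor only on the ALDH-negative array, at 5.47 and 5.36. The other endothelial markers, VWF (0.39 in the ALDH sort) and KDR (-0.04), were below the floor. In all, 3 of the 6 leukocyte, 4 of the 6 fibroblast and at most 2 of the 4 endothelial markers were above the floor in a sort. The part of other cell types in the results was not tested.

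Most replication genes were higher in the ALDH-positive fraction than in its negative counterpart, and most were slightly lower in the CD133-positive fraction than in the CD133-negative one. In the ALDH sort 42 of the 46 genes were higher in the positive fraction, where 48.5% of all 11879 genes above the floor were. The median difference was 0.35, beside -0.01 over those genes. The ribonucleotide reductase subunit RRM2 differed most, at 1.23, followed by the sliding clamp PCNA at 0.84, the GINS subunit GINS2 at 0.77 and the clamp loader subunit RFC4 at 0.76. The 4 lower ones stood beside 51.5% of those genes. By CD133, 39 of the 46 were lower in the positive fraction and 7 (beside 42.9%) higher, where 57.1% of all 11591 genes above the floor were. The median difference there was -0.15, beside -0.04 over those genes, and lay inside the middle 50% of them, which ran from -0.20 to 0.12.

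At 1.5-fold, a log2 difference of 0.58, 9 of the 46 genes were higher in ALDH-positive cells, and 4.15% of all genes above the floor were. The 9 were RRM2, PCNA, GINS2, RFC4, CHAF1A, MCM4, CDC45, MCM10 and TYMS. None of the 46 was 1.5-fold lower in ALDH-positive cells, as 6.6% of all genes were. TYMS at 0.62 and MCM10 at 0.62 were just inside the line, and MCM8 at 0.58 and MCM3 at 0.56 just outside it. RRM2 alone was 2-fold higher in ALDH-positive cells, as 0.278% of all genes were. In the CD133 sort 1 gene, GINS2, was 1.5-fold lower in the positive fraction, a share of 2.17% that is close to the 1.89% of all genes, and none was 1.5-fold higher, as 2.74% of all genes were. GINS2 did not reach 1.5-fold after a second quantile normalization, after loess or with differences centred on the median of all genes above the floor. The count of 7 genes higher in CD133-positive cells became 13 after the second quantile normalization, 14 after loess and 11 with centring, so the CD133 signs depend on the scaling.

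**Figure D1:**
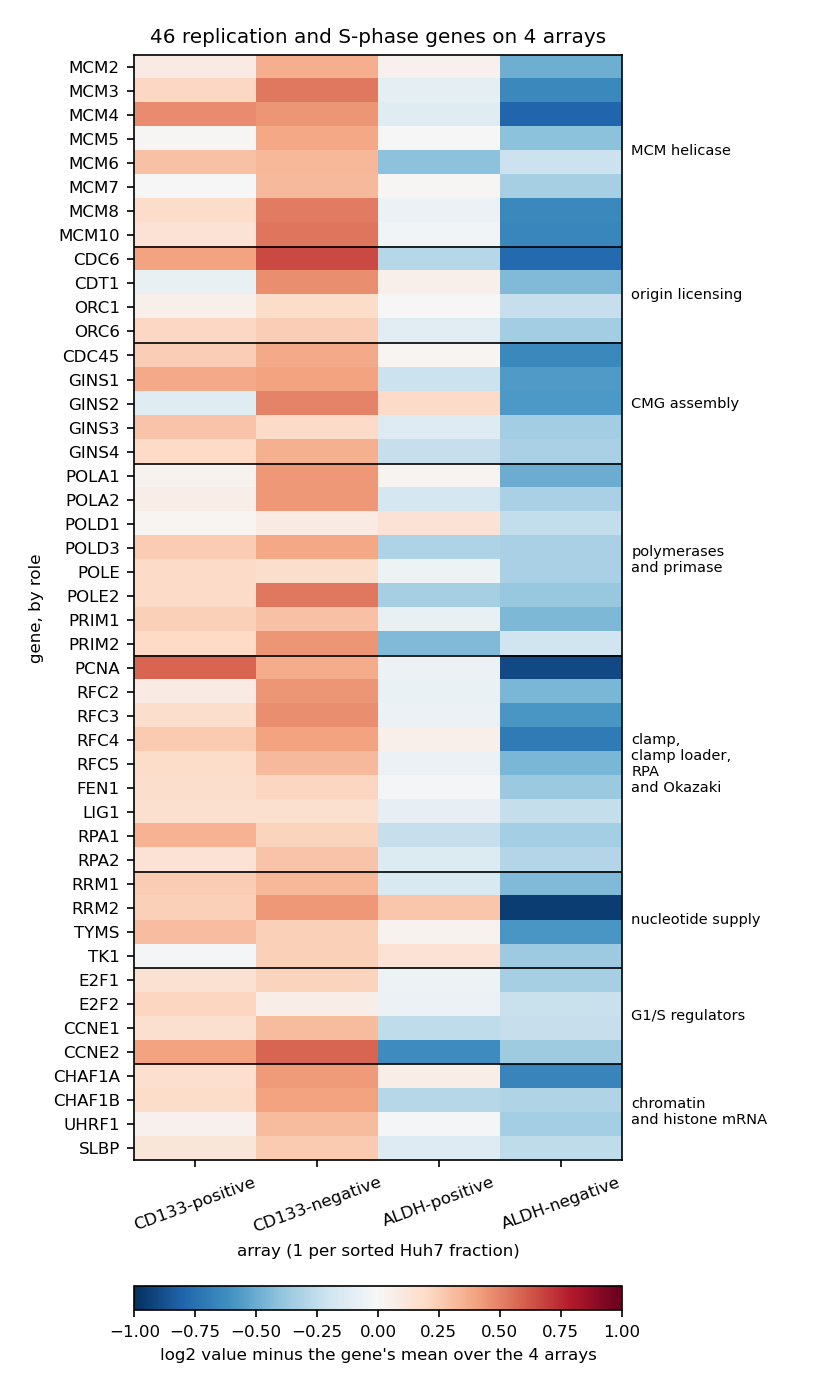
Level of each of the 46 genes on each array, as the log2 value minus the gene's mean over the 4 arrays (red above, blue below that mean), with genes in rows by role. The ALDH-negative column is the bluest for 42 of the 46 genes and the CD133-negative column the reddest for 38.

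The order of the arrays was nearly the same for most of the genes. The ALDH-negative array was the lowest of the 4 for 42 of the 46 genes, beside 29.3% of the 12177 genes that cleared the floor in either sort. The CD133-negative array was the highest for 38, beside 35.3% of those genes. Relative to each gene's own mean over the 4 arrays, the median of the 46 was 0.18 in CD133-positive cells, 0.37 in CD133-negative cells, -0.06 in ALDH-positive against -0.38 in ALDH-negative cells. Any batch that the arrays of a sort shared cannot be told apart from the sort.

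Set against each other, the sorts gave 35 genes that were lower in CD133-positive and higher in ALDH-positive cells, beside 26.6% of the 11293 genes above the floor in both sorts. Another 7 were higher in both positive fractions, namely MCM4, PCNA, TYMS, GINS3, POLE, RPA1 and E2F2, beside 21.1% of those genes. MCM6, PRIM2, CCNE1 and CCNE2 were lower in both, beside 30.4%. None of the 46 showed the reverse pair of signs, beside 21.9%. Across the 46 genes, which share the 4 arrays, Pearson's r between the differences was -0.16, and it was -0.12 across all 11293 genes. The sorts were not tested against each other.

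**Figure D2:**
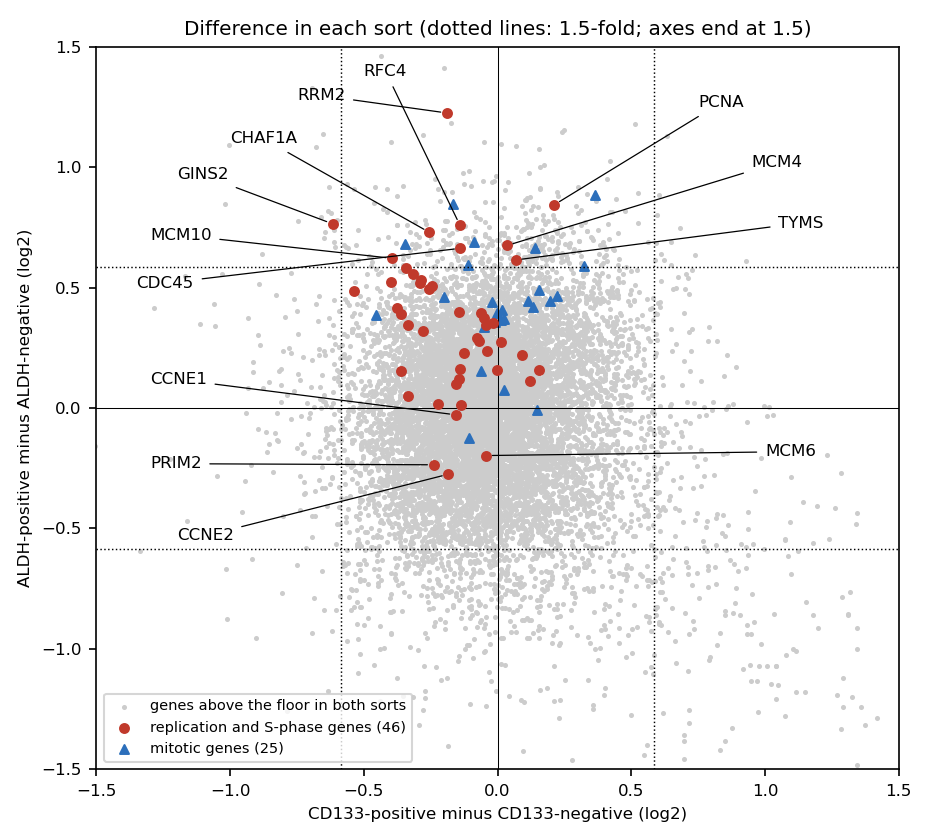
Difference in the ALDH sort (vertical axis, log2) against that in the CD133 sort (horizontal axis, log2) for the 46 replication and S-phase genes (red circles), 25 mitotic genes (blue triangles) and all genes above the floor in both sorts (grey; some lie beyond the axes). Of the red circles 42 lie above the horizontal zero line and 39 left of the vertical one, while the triangles lie above it in 23 of 25 cases and spread to both sides of the vertical one.

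The promoters were then read for the motifs that cell-cycle genes are known for. RefSeq promoter windows on build GRCh38.p14, from 250 bases before to 50 bases after the transcription start, were matched for 40 of the 46 genes. The E2F consensus was searched on both strands in 4 spellings, TTTCCCGC, TTTCGCGC, TTTGCCGC and TTTGGCGC, of which the spellings TTTCGCGC and TTTGGCGC can overlap on opposite strands. It was present in 21 of the 40 promoters, or 52.5%, and in 3.33% of the 27305 genes with a window (the first window listed for each gene). CCAAT, the box bound by the factor NF-Y, was present on either strand in 22 of the 40, or 55%, and in 35.7% of all genes. TTTGAA, the core of the cell-cycle homology region of mitotic genes, was in 1 of the 40, or 2.50%, in 13 of 21 mitotic genes with a window, and in 15.4% of all genes. A match is a string of letters and not a measured binding site.

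The 250 bases upstream of the start are shown for 3 genes. PCNA (chr20:5126623-5126872, minus strand) had the second largest difference in the ALDH sort, GINS2 (chr16:85688955-85689204, minus strand) passed 1.5-fold in both sorts in opposite directions, and MCM6 (chr2:135876444-135876693, minus strand) went against the other MCM genes in the ALDH sort. Sequences run 5′ to 3′ in the direction of transcription, and capitals mark E2F matches and CCAAT boxes on either strand.
PCNA: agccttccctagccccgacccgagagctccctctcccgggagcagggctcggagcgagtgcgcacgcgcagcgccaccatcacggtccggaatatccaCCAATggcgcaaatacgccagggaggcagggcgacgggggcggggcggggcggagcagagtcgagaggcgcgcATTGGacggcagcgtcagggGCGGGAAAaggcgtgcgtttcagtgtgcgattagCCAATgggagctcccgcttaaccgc
GINS2: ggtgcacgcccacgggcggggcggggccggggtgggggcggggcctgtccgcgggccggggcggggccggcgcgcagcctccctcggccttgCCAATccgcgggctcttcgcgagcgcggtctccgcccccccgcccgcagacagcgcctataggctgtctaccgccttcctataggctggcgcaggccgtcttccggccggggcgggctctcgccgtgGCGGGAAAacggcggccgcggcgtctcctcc
MCM6: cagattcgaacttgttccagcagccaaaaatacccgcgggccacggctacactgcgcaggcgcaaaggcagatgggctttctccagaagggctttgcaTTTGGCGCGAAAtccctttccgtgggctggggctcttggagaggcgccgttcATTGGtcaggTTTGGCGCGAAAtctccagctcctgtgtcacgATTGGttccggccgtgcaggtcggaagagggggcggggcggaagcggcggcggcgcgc
PCNA and GINS2 each held 1 E2F match, starting at positions -59 and -31 from the transcription start. MCM6 held 2 identical runs, each matched on both strands, which gave 4 matches that overlap in pairs. MCM3, MCM7 and E2F1 also held matches at 2 places. A link between the number of matches and the direction in a sort was not tested.

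Shorter stretches show E2F matches of some of the other genes. The matches were searched by fixed spellings, so their likeness to each other follows from the search and is not a result. Each line gives 1 match in capitals with 10 bases on either side, on the gene's own strand. MCM2, MCM3, MCM7 and E2F1 each held another match, which is not in capitals here and in MCM2 overlaps the one shown.
MCM2: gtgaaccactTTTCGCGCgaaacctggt
MCM3: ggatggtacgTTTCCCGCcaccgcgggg
MCM7: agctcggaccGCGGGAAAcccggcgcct
CDC6: gccattcggaTTTGGCGCgagcgcggct
CDT1: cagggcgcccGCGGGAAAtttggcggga
RFC3: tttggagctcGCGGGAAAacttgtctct
TYMS: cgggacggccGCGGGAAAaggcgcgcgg
E2F1: tggctctttcGCGGCAAAaaggatttgg
These lie at chr3:127598403-127598430 (plus strand), chr6:52284899-52284926 (minus), chr7:100101567-100101594 (minus), chr17:40287876-40287903 (plus), chr16:88803744-88803771 (plus), chr13:33818084-33818111 (plus), chr18:657604-657631 (plus) and chr20:33686401-33686428 (minus), in the order of the lines. RRM2, the gene with the largest difference in the ALDH sort, had no E2F match in its windows. Its first window instead held 3 CCAAT boxes in a repeated setting, shown with 10 bases on either side (chr2:10122606-10122630, chr2:10122636-10122660 and chr2:10122663-10122687, plus strand).
RRM2 first box: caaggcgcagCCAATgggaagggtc
RRM2 second box: catggcacagCCAATgggaagggcc
RRM2 last box: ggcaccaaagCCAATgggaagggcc

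Differences were set beside the matches. The 21 genes with an E2F match had a median ALDH difference of 0.35, and the 19 without one had 0.37. For CD133 the medians were -0.28 with a match and -0.14 without. The 22 genes with a CCAAT box had a median ALDH difference of 0.39 and the 18 without one 0.28, while their CD133 medians were -0.14 with a box and -0.19 without. Of the 8 genes with a window that passed 1.5-fold in the ALDH sort, 3 had an E2F match (PCNA, GINS2 and TYMS) and 6 a CCAAT box. These are descriptions of the windows searched and were not tested.

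**Figure D3:**
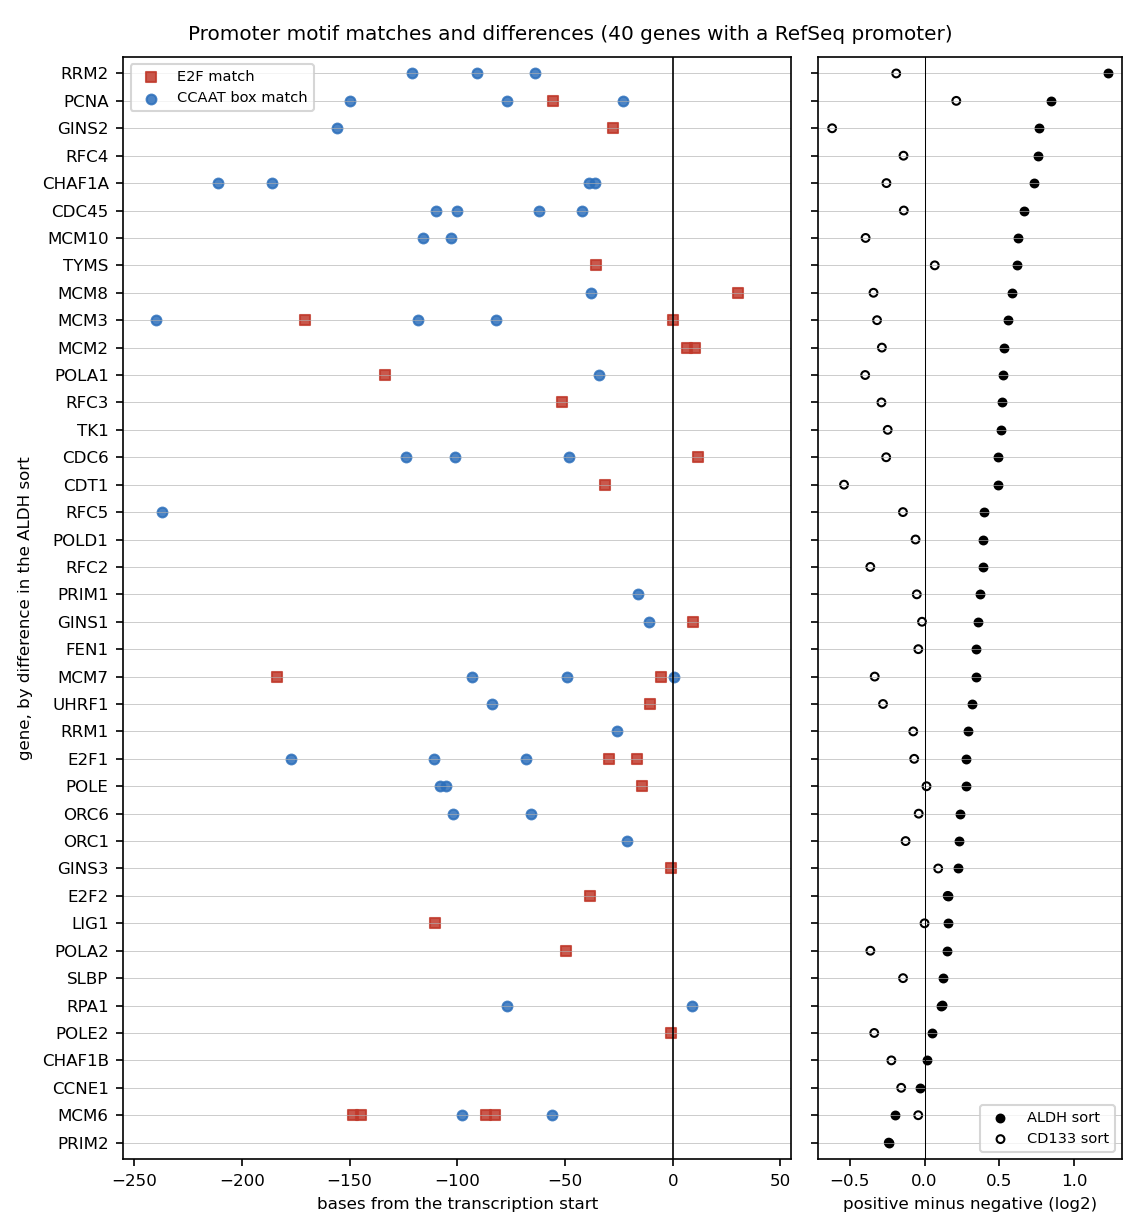
Positions of E2F matches (red squares) and CCAAT boxes (blue circles) in the promoter windows of 40 genes (left, horizontal axis in bases from the transcription start), with each gene's difference in the ALDH sort (filled) and the CD133 sort (open) on the right in log2 units. Genes run from the largest ALDH difference (RRM2, 1.23) to the smallest (PRIM2, -0.24), and E2F matches occur along the whole order.

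Among the origin licensing genes, CDC6 and CDT1 load the helicase, and ORC1 and ORC6 are subunits of the origin recognition complex. CDC6 was at 8.41 in CD133-positive against 8.67 in CD133-negative cells, and at 7.73 in ALDH-positive against 7.24 in ALDH-negative cells. CDT1 was at 7.52 in CD133-positive against 8.06 in CD133-negative cells, and at 7.64 in ALDH-positive against 7.15 in ALDH-negative cells. Both were higher in ALDH-positive cells by 0.49, and CDT1 had the second largest difference of the 46 in the CD133 sort, at -0.54. ORC1 differed by -0.13 between the CD133 fractions and 0.23 in the ALDH sort, and ORC6 by -0.04 and 0.24. All 4 licensing genes were lower in CD133-positive and higher in ALDH-positive cells, beside 26.6% of the genes above the floor in both sorts. The other subunits ORC2, ORC3, ORC4 and ORC5, named after their values were seen, were lower in ALDH-positive cells, by -0.48, -0.10, -0.53 and -0.20.

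MCM2 to MCM7 form the ring of the replicative helicase. MCM4 was at 8.35 in ALDH-positive against 7.68 in ALDH-negative cells, with 8.95 in CD133-positive against 8.91 in CD133-negative cells. MCM6 was at 8.18 in ALDH-positive against 8.38 in ALDH-negative cells, with 8.89 in CD133-positive against 8.93 in CD133-negative cells. Among the 6 ring subunits MCM6 was the only one lower in ALDH-positive cells (-0.20), and MCM4 the only one not lower in CD133-positive cells (0.04). MCM2 (0.53), MCM3 (0.56), MCM5 (0.42) and MCM7 (0.35) were higher in ALDH-positive cells, and differed by -0.29, -0.32, -0.38 and -0.33 in the CD133 sort. MCM10, which helps to activate the helicase, was at 7.19 in ALDH-positive against 6.57 in ALDH-negative cells, and at 7.36 in CD133-positive against 7.76 in CD133-negative cells. MCM8, a related helicase known from recombination repair, differed by 0.58 in the ALDH sort and -0.34 in the CD133 sort. Over all 8 MCM genes the median was 0.54 in the ALDH sort and -0.33 in the CD133 sort, the lowest CD133 median of the 8 roles.

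CDC45 and the 4 GINS proteins join the MCM ring to make the active helicase. GINS2 was at 7.05 in CD133-positive against 7.67 in CD133-negative cells, and at 7.36 in ALDH-positive against 6.60 in ALDH-negative cells. Its difference was -0.62 between the CD133 fractions and 0.77 in the ALDH sort. The CD133 difference did not reach 1.5-fold after the second quantile normalization, loess or centring. CDC45 was at 6.65 in ALDH-positive against 5.99 in ALDH-negative cells, and at 6.88 in CD133-positive against 7.01 in CD133-negative cells. The subunits of GINS did not move by one amount. GINS1 differed by 0.35, GINS3 by 0.22 and GINS4 by 0.10 in the ALDH sort, and by -0.02, 0.09 and -0.16 in the CD133 sort. GINS3 was dim, at 4.57 in ALDH-positive against 4.35 in ALDH-negative cells, both below the floor, and 4.99 in CD133-positive against 4.90 in CD133-negative cells.

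The 8 genes of the polymerases and primase had a median ALDH difference of 0.21, beside 0.35 over the 46, and a median CD133 difference of -0.19, beside -0.15. POLA1, the catalytic subunit of polymerase alpha, was at 6.06 in ALDH-positive against 5.53 in ALDH-negative cells, and at 6.06 in CD133-positive against 6.46 in CD133-negative cells. PRIM2, the large primase subunit, was at 5.80 in ALDH-positive against 6.04 in ALDH-negative cells, and at 6.44 in CD133-positive against 6.68 in CD133-negative cells. Its partner PRIM1, the catalytic primase subunit, differed in the opposite direction in the ALDH sort, at 0.37. The catalytic subunits of polymerases delta and epsilon, POLD1 (0.39) and POLE (0.27), were also higher in ALDH-positive cells, while the accessory subunits POLA2 (0.15), POLE2 (0.05) and POLD3 (0.01) differed little there. In the CD133 sort POLE (0.01) and PRIM1 (-0.05) hardly differed, and POLA1 (-0.40), POLA2 (-0.36) and POLE2 (-0.34) were lower in the positive fraction. None of the 8 reached 1.5-fold in either sort. Of all genes above the floor, 4.15% were 1.5-fold higher and 6.6% lower in ALDH-positive cells. In CD133-positive cells the shares were 2.74% and 1.89%.

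All 9 genes of the clamp, its loader, replication protein A and Okazaki fragment processing were higher in ALDH-positive cells, beside 48.5% of all genes above the floor. PCNA was at 7.98 in ALDH-positive against 7.14 in ALDH-negative cells, and at 8.62 in CD133-positive against 8.41 in CD133-negative cells. Its 0.21 in the CD133 sort was the highest of the 46. RFC4 was at 8.16 in ALDH-positive against 7.40 in ALDH-negative cells, and at 8.37 in CD133-positive against 8.51 in CD133-negative cells. The other loader subunits RFC3 (0.52), RFC5 (0.40) and RFC2 (0.39) differed in the same direction in the ALDH sort, with RFC2 at -0.36 and RFC3 at -0.29 in the CD133 sort. The flap nuclease FEN1 (0.35) and the ligase LIG1 (0.16) join Okazaki fragments, and in the CD133 sort they differed by -0.04 and less than 0.01. The single-strand binding proteins RPA1 (0.11) and RPA2 (0.16) had the smallest ALDH differences of the group beside LIG1, and RPA1 was among the few genes higher in CD133-positive cells (0.12).

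The genes of deoxynucleotide supply held the largest difference. RRM2, the regulatory subunit of ribonucleotide reductase and the one that is made in S phase, was at 6.80 in ALDH-positive against 5.57 in ALDH-negative cells, a 2.34-fold difference. Sorted by CD133, RRM2 was at 6.76 in CD133-positive against 6.95 in CD133-negative cells. RRM1, the catalytic subunit, is known to vary less through the cell cycle, and it differed by 0.29 in the ALDH sort and -0.08 in the CD133 sort. The ALDH-negative array was the low one for RRM2, and the other 3 were close to each other. Thymidylate synthase TYMS was at 9.47 in ALDH-positive against 8.85 in ALDH-negative cells, and at 9.74 in CD133-positive against 9.67 in CD133-negative cells. Thymidine kinase TK1 was at 7.38 in ALDH-positive against 6.87 in ALDH-negative cells, and at 7.22 in CD133-positive against 7.47 in CD133-negative cells.

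Among the 4 regulators of S-phase entry, CCNE2 was lower in ALDH-positive cells, CCNE1 hardly differed there and both E2F genes were higher. By CD133, 3 of the 4 were lower in the positive fraction, beside 57.1% of all genes above the floor. CCNE2, a cyclin E gene, was at 4.92 in ALDH-positive cells, below the floor, and 5.20 in ALDH-negative cells, and at 5.95 in CD133-positive against 6.14 in CD133-negative cells. The other cyclin E gene, CCNE1, differed by -0.03 in the ALDH sort and -0.16 in the CD133 sort. Its ALDH difference turned to 0.04 after the second quantile normalization and 0.02 after loess, so that sign depends on the scaling. E2F1 was at 7.19 in ALDH-positive against 6.91 in ALDH-negative cells, and at 7.39 in CD133-positive against 7.46 in CD133-negative cells. E2F2 differed by 0.16 in the ALDH sort and 0.15 in the CD133 sort. The median of these 4 genes was 0.06 in the ALDH sort, the lowest of the 8 roles, and -0.11 for CD133. The difference from the other roles was not tested.

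Among the chromatin genes of S phase, CHAF1A, the large subunit of the histone chaperone that assembles nucleosomes behind the fork, was at 7.70 in ALDH-positive against 6.97 in ALDH-negative cells, and at 7.81 in CD133-positive against 8.06 in CD133-negative cells. Its partner CHAF1B was at 6.17 in ALDH-positive against 6.15 in ALDH-negative cells, and at 6.63 in CD133-positive against 6.85 in CD133-negative cells. The pair therefore parted in the ALDH sort (0.73 and 0.02) and differed alike in the CD133 sort (-0.25 and -0.22). UHRF1, which guides maintenance DNA methylation, was at 7.39 in ALDH-positive against 7.07 in ALDH-negative cells, and at 7.45 in CD133-positive against 7.73 in CD133-negative cells. A second, dimmer UHRF1 probe near the floor gave 0.01 in the ALDH sort and 0.09 in the CD133 sort. SLBP, which binds the stem-loop of histone mRNA, differed by 0.12 in the ALDH sort and -0.14 in the CD133 sort.

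Related lists were read beside the shares of all genes above the floor. In the ALDH sort 48.5% of those genes were higher in the positive fraction, 4.15% were 1.5-fold higher and 6.6% 1.5-fold lower. In the CD133 sort 57.1% were lower in the positive fraction and 1.89% 1.5-fold lower. Of 40 other replication genes measured, 25 were higher in ALDH-positive cells (median 0.15) and 34 were lower in CD133-positive cells (median -0.20). DUT, which removes dUTP from the nucleotide pool, differed most in the ALDH sort. It was at 5.63 in ALDH-positive cells against 4.52, below the floor, in ALDH-negative cells. The histone chaperone ASF1B (0.68) followed. In the CD133 sort SAMHD1, which breaks down deoxynucleotides (-0.56), and ASF1A (-0.43) differed most. Of 13 genes of replication stress and repair, 10 were higher in ALDH-positive cells and 3 lower. At 1.5-fold 3 of the 13 were higher, EXO1, a nuclease (0.69), and FANCI (0.62) among them, and 1 was lower, with the largest difference of the list (-0.78). All 13 were lower in CD133-positive cells, 1 of them at 1.5-fold. Of 20 replication-dependent histone genes, 17 (85%) were higher in ALDH-positive cells and 14 (70%) lower in CD133-positive cells, with medians of 0.33 and -0.26. These genes are near copies of each other, and their single values are uncertain.

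Mitotic genes shared the ALDH difference but not the CD133 one. Of 25 mitotic genes, 23 were higher in ALDH-positive cells (median 0.44), beside 48.5% of all genes above the floor. The spindle kinase AURKA (0.88) and the cyclin CCNB2 (0.85) led them. By CD133, 13 of the 25 were higher and 12 lower, beside 42.9% and 57.1% of all genes above the floor. Their median was 0.01, where the 46 replication genes had a median of -0.15. The proliferation marker MKI67 (-0.45) and AURKA (0.36) differed most there. The difference between the lists was not tested.

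**Figure D4:**
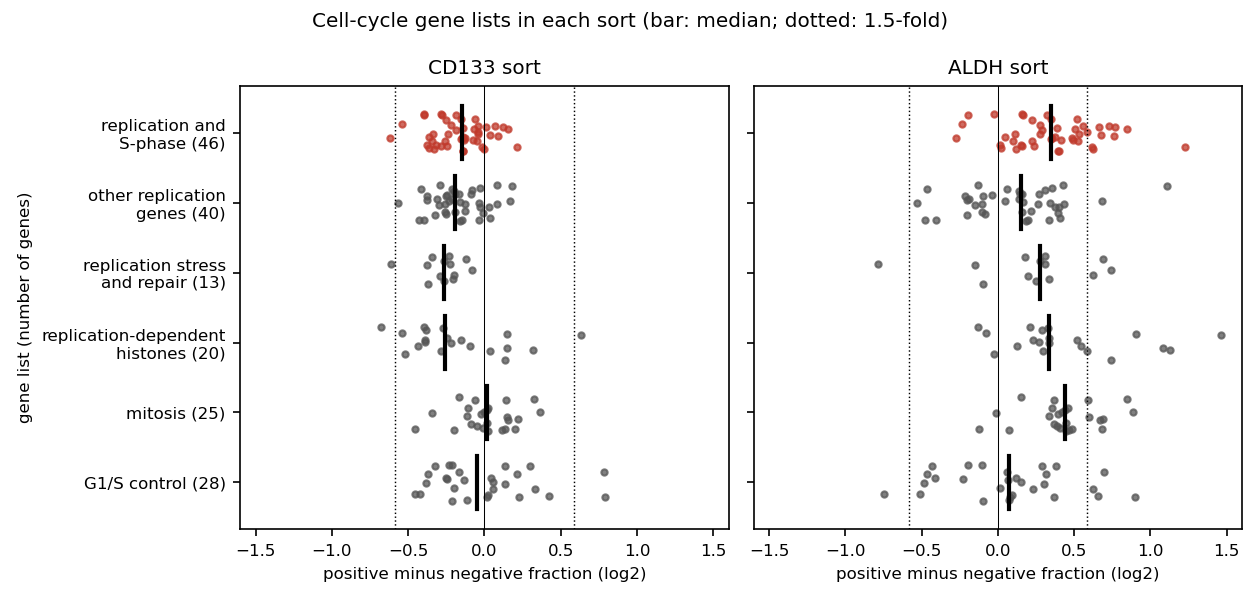
Differences of single genes (points, log2, positive minus negative fraction) in 6 gene lists, with the CD133 sort on the left and the ALDH sort on the right; bars mark medians and dotted lines 1.5-fold. In the CD133 sort the median is -0.15 for replication and S-phase genes and 0.01 for mitotic genes, and in the ALDH sort both lie above zero, at 0.35 and 0.44.

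Genes that control S-phase entry, 28 in all, had medians near zero, at -0.05 between the CD133 fractions and 0.08 in the ALDH sort. Inhibitors and activators among them differed in both directions. CDKN1A, the p21 inhibitor, was at 6.42 in CD133-positive against 5.64 in CD133-negative cells, and at 6.14 in ALDH-positive against 6.88 in ALDH-negative cells. CDKN2B, the p15 inhibitor, was at 6.54 in CD133-positive against 5.75 in CD133-negative cells, and at 6.10 in ALDH-positive against 6.57 in ALDH-negative cells. Both thus differed in the reverse directions of most replication genes, up with CD133 and down with ALDH. Of the genes above the floor in both sorts, 21.9% had that pair of signs. The inhibitor CDKN2D did not have it and was higher in both positive fractions (0.22 in the CD133 sort). A link to the replication genes was not tested. TFDP1, the DNA-binding partner of E2F proteins, was 1.5-fold higher in ALDH-positive cells (0.90), as were the inhibitor CDKN2D (0.69), the repressor E2F7 (0.66) and FBXO5, which restrains the anaphase-promoting complex (0.63).

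Marker status was also fitted over both sorts together, the contrast of stem-like with other cells that the series title names. With limma, the sort as a block and Benjamini-Hochberg adjustment over 12177 genes, 0 of the 46 and 0% of all genes passed an adjusted p of 0.05. At an unadjusted p of 0.05 in this limma fit there were 592 of the 12177 genes and 1 of the 46, PCNA. The share of the 46 was thus no larger than that of all genes. PCNA had the highest mean difference of the 46 over both sorts, at 0.53. Its adjusted p in this limma fit was 0.889, which MCM4, RRM2 and TYMS shared and which was the lowest over all genes. The design has 1 residual degree of freedom and does not test either sort. That residual is the difference between a gene's CD133 and ALDH differences. The p-values therefore rest on how far the sorts disagree, pooled over genes. With 1 array per fraction this disagreement cannot be told apart from technical spread. In a fit without the block, 80 genes and 2 of the 46 passed when the CD133-negative array was left out, and 38 genes and 0 of the 46 when the ALDH-negative array was.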

How the data were processed

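The authors deposited log2 expression values from RMA, per the submitters' processing notes; the software, its version and the build behind the probes are not given in the sources used here. The log2 scale was read from the values (0.556 to 13.5). Per the labels' protocols, Trizol RNA was biotin-labelled. RMA hides shifts shared by most genes and compresses differences of dim probes. Of 28869 probes, 19310 carried 1 symbol and 1752 several (not used). The probe with the highest mean stood for a gene. Differences were positive minus negative, counted at 1.5-fold over genes with 1 array of the sort at or above 4.98. Marker status over both sorts was fitted with limma 3.58.1 in R 4.3.3 over genes past that floor in either sort; on simulated data of 12177 genes it called 68 of 100 genes changed by 1 log2 unit, 100 of 100 changed by 2, and 17 of 11977 unchanged. Promoters are RefSeq's, GRCh38.p14. Python 3.11.15 was used. The members and lists were chosen with earlier results of these data known; all members are named, and list genes only if past 1.5-fold or among the 2 largest of their list, not all of which are named. Label checks, cell type markers and ORC2 to ORC5 were named outside that rule, after their values were seen. The number of arrays limits all precision.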

Additional observations from a re-analysis of the deposited data

Results flagged for a closer look

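The medians of the 46 replication genes had opposite signs, at -0.15 (CD133) and 0.35 (ALDH). Of the 46, 35 were lower in CD133-positive and higher in ALDH-positive cells, beside 26.6% of the genes above the floor in both sorts. Another 7 had a positive sign in each sort (beside 21.1%) and 4 a negative one in each (beside 30.4%). The CD133 signs depend on the scaling, as does the ALDH sign of CCNE1. GINS2 had opposite signs at 1.5-fold in both, at -0.62 (CD133) and 0.77 (ALDH). With 1 array per fraction the difference between the sorts was not tested. The transcript of ALDH1A1 did not check the ALDH labels, on which the direction in that sort rests.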

How the results depend on the processing

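The median of the 46 genes kept its sign under every alternative run. It lay between -0.15 and -0.09 in the CD133 sort and between 0.35 and 0.43 in the ALDH sort. Genes higher in ALDH-positive cells numbered 42 in each run that kept all 46, but not always the same 42. After the second quantile normalization and loess CCNE1 turned positive (0.04 and 0.02) and POLE2 negative (-0.0009 and -0.03). The CD133 pattern was the less stable. Genes higher in CD133-positive cells numbered 7, against 13 after a second quantile normalization, 11 with differences centred on the median of all genes and 14 after loess with a span of 0.4. GINS2 was no longer 1.5-fold lower in CD133-positive cells under these 3 settings, which left 0 genes there. At 2-fold 0 genes were lower in CD133-positive and 1 was higher in ALDH-positive cells. The median of the G1/S control list in the CD133 sort was -0.05 and turned to 0.0051 after the second quantile normalization and 0.0176 after loess. In the limma fit 0 genes passed under the block and the alternatives with all 4 arrays. Without the block, leaving out 1 array at a time gave 0 to 80 genes and 0 to 2 of the 46; 80 and 2 came without the CD133-negative array, and 38 and 0 without the ALDH-negative array. There the lone array of an arm is assumed to vary like the others.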
